A study of Mus musculus with 17 samples.

Results

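The insulin-like growth factor (IGF) axis of the mouse mammary gland was described here through 10 genes: the ligand genes Igf1 and Igf2, the receptor genes Igf1r and Igf2r, the binding protein genes Igfbp2, Igfbp3, Igfbp4, Igfbp5 and Igfbp6, and the growth hormone receptor gene Ghr. They were chosen by name, as every row of the deposited FPKM table that carries 1 of these symbols. This gave 11 of 30843 loci, since Igf2 is listed at 2 loci. All 11 passed a minimum of 1 FPKM in at least 2 of 8 columns and so belong to the 12190 genes analysed. FPKM scales fragments to transcript length and to the total mapped, so levels of different genes can be set side by side on it.

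Polyadenylated RNA was sequenced from whole mammary glands of C57Bl/6 mice, nulliparous females of 4 genotypes. AROM mice carried tet-op-CYP19A1 with MMTV-rtTA, a tetracycline-controlled gene of aromatase, the enzyme that makes estrogens. CERM mice carried tet-op-Esr1 with MMTV-rtTA, so that Esr1, which encodes estrogen receptor alpha, is controlled likewise. BRCA mice were Brca1 fl11/fl11 with MMTV-Cre and p53+/-, so that Brca1, a DNA repair gene, loses its exon 11 in Cre-expressing cells and p53 keeps 1 functional allele. WT mice carried none of these. The MMTV promoter is active mainly in mammary epithelium, whereas the RNA came from the whole gland with its fat, stroma and muscle. The labels state neither ages nor any treatment, doxycycline included. Of the 17 libraries, 8 were single-end (2 of each genotype) and 9 paired-end (3 of AROM, 3 of CERM, 2 of BRCA and 1 of WT). The table holds 1 pooled value for each genotype and layout. Replicate error is therefore unknown for every value, no test was made, and each difference is a description of pooled columns. Per the protocols libraries were sequenced by both methods, so the layouts may share glands and 1 layout does not replicate the other.

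The IGF axis is a hormone system for growth. Growth hormone acts through its receptor to induce Igf1, both in the liver and inside the mammary gland, where stromal cells are the main source, and IGF1 acts on the IGF1 receptor of epithelial cells to drive duct growth and survival. IGF-binding proteins hold the ligands outside the cell and can block or prolong their action. The IGF2 receptor takes up IGF2 for degradation and carries lysosomal enzymes. Igfbp5 is known in this tissue for its rise during involution, the regression of the gland after weaning.

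The labelled genotypes were checked first. Esr1 lay at 8.49 and 8.41 FPKM in CERM (single-end, then paired-end) and at 7.27 and 6.89 FPKM in WT. It was at 8.41 and 7.87 FPKM in AROM, which lacks the Esr1 transgene, and at 6.59 and 6.48 FPKM in BRCA. Brca1 was at 3.28 and 3.29 FPKM in BRCA against 1.13 and 0.851 FPKM in WT, a value over the whole locus that does not measure exon 11. Trp53 was at 12.3 and 12.1 FPKM in BRCA against 41.1 and 34.5 FPKM in WT. Mouse Cyp19a1 was at most 0.0591 FPKM, and human CYP19A1 was not measured. These values do not check the AROM and CERM labels, so the genotypes are used as the labels give them. Epithelial, milk, fat and stromal markers were all present, with none of the genes of those lists in the table at 0. Values carrying 10 decimals, as means of 3 values do, made up 55.3% of the single-end WT column and 52.6% of the paired-end WT column, and 0% in the other columns. The labels give 2 and 1 WT libraries for these columns, so what the WT columns average was not settled, and this touches every comparison with WT. The paired-end AROM column stood apart in its total over the table, 1.20e+08 FPKM beside totals between 894860 and 6.24e+06 in the rest, while the median over the genes analysed was 7.19 FPKM there and 7.92 to 9.28 FPKM in the others. Ncl, which every cell uses, is listed at 0 in the single-end WT column.

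The members spanned a wide range of levels. Ghr, Igfbp4 and Igfbp5 were above at least 94.8% of the genes analysed in every column, and Igfbp6 above at least 85.1%. Igf1, Igf2r and Igfbp3 lay in the middle and upper part, and Igf1r, at 1.85 to 3.50 FPKM, was the lowest of the main loci. The plot of member values shows this order, and that the spread between layouts was wider in AROM and WT than in BRCA.

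**Figure D1:**
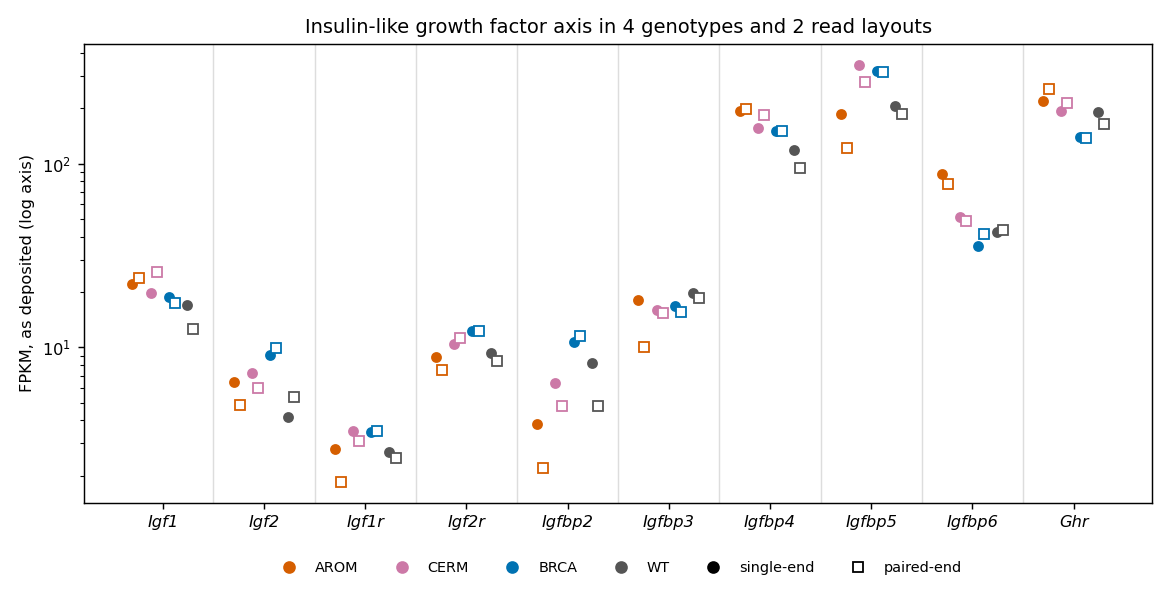
Authors' pooled FPKM value (log axis) of the 10 IGF axis genes, with colours for AROM, CERM, BRCA and WT, filled circles for single-end and open squares for paired-end columns. Igfbp4 sits lowest in WT and highest in AROM in both layouts, and Igfbp6 highest in AROM.

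The ligands come first. Igf1, the main IGF of the postnatal gland, was at 22.1 FPKM in AROM, 19.8 in CERM, 18.7 in BRCA and 17.0 in WT in the single-end columns. The paired-end values were 23.9 FPKM in AROM, 25.8 in CERM, 17.4 in BRCA and 12.6 in WT. WT was the lowest genotype in both layouts, and its paired-end value was 0.743 times its single-end value. Igf2, a fetal growth factor and imprinted gene, was at 6.47 FPKM in AROM, 7.21 in CERM, 9.05 in BRCA and 4.17 in WT (single-end). Its paired-end values were 4.86 FPKM in AROM, 6.00 in CERM, 9.95 in BRCA and 5.36 in WT. BRCA was the highest for Igf2 in both layouts, while AROM lay above WT in one and below it in the other. The Igf1 level was 3.42 to 4.90 times the Igf2 level in AROM, 2.74 to 4.29 times in CERM, 1.75 to 2.07 times in BRCA and 2.35 to 4.07 times in WT.

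The second Igf2 locus (XLOC_024871) was at 1.87 FPKM in AROM, 2.41 in CERM, 2.12 in BRCA and 1.56 in WT in the single-end columns and is listed at 0 in all 4 paired-end columns. Reads of Igf2 may thus be split between loci, and the values above are those of the other one (XLOC_026000). The antisense gene Igf2as was at most 0.0693 FPKM in any column. In GENCODE M21, Igf2 overlaps Gm49394, Mir483 and Igf2os, Igf1 overlaps Igf1os, and Igf2r overlaps the antisense transcript Airn, which is at 3.59 to 6.24 FPKM in the table. How strand was handled in the quantification is not stated in the labels, so reads of such pairs cannot be told apart. The other 7 members have no overlapping gene there.

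The receptors come next. Igf1r, the tyrosine kinase receptor for both IGFs, was at 2.80 FPKM in AROM, 3.49 in CERM, 3.48 in BRCA and 2.69 in WT (single-end), and at 1.85 FPKM in AROM, 3.09 in CERM, 3.50 in BRCA and 2.49 in WT (paired-end). Igf2r was at 8.81 FPKM in AROM, 10.4 in CERM, 12.3 in BRCA and 9.33 in WT (single-end), and at 7.57 FPKM in AROM, 11.2 in CERM, 12.3 in BRCA and 8.39 in WT (paired-end). For both receptors CERM and BRCA were above AROM and WT in each layout. The AROM and WT values of Igf1r overlapped over the layouts, as did those of CERM and BRCA. Ghr was at 219.5 FPKM in AROM, 193 in CERM, 139 in BRCA and 191 in WT (single-end), and at 255 FPKM in AROM, 213 in CERM, 138 in BRCA and 164 in WT (paired-end). It had the same order of genotypes in both layouts, with AROM highest and BRCA lowest, though CERM and WT were 1.01 times apart in the single-end columns.

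Binding protein transcripts ran over a wide range of levels, from 2.20 FPKM for Igfbp2 to 345 FPKM for Igfbp5. Igfbp5, which binds IGFs and extracellular matrix, was at 186 FPKM in AROM, 345 in CERM, 318 in BRCA and 206 in WT (single-end), and at 122 FPKM in AROM, 279 in CERM, 317 in BRCA and 187 in WT (paired-end). CERM and BRCA were thus above WT and AROM in both layouts without overlap. Igfbp4, whose product mostly inhibits IGF action until it is cleaved by the protease PAPP-A, was at 193 FPKM in AROM, 157 in CERM, 151 in BRCA and 119 in WT (single-end). Its paired-end values were 198 FPKM in AROM, 184 in CERM, 151 in BRCA and 94.3 in WT, in the same order, with WT below every other genotype.

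Igfbp6, whose product prefers IGF2 to IGF1, was at 87.5 FPKM in AROM, 51.4 in CERM, 35.5 in BRCA and 42.7 in WT (single-end), and at 77.4 FPKM in AROM, 48.9 in CERM, 41.5 in BRCA and 43.6 in WT (paired-end). AROM stood above the other 3 genotypes in both layouts, while the highest BRCA value (41.5) and the lowest WT value (42.7) nearly met. Igfbp2, whose product also binds integrins, was at 3.81 FPKM in AROM, 6.42 in CERM, 10.7 in BRCA and 8.19 in WT (single-end), and at 2.20 FPKM in AROM, 4.77 in CERM, 11.6 in BRCA and 4.79 in WT (paired-end). BRCA was highest and AROM lowest in both layouts, and Igfbp2 had the widest range of the main loci, 5.24-fold from its lowest to its highest column. Igfbp3, the main carrier of IGFs in blood, was at 18.2 FPKM in AROM, 15.9 in CERM, 16.9 in BRCA and 19.8 in WT (single-end), and at 10.1 FPKM in AROM, 15.5 in CERM, 15.5 in BRCA and 18.5 in WT (paired-end). WT was highest for Igfbp3 in both layouts, and AROM differed more between its own layouts than it did from any other genotype in the single-end columns.

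The 5 binding proteins summed to 488 and 409.6 FPKM in AROM (single-end, then paired-end), 576 and 532 in CERM, 532 and 537 in BRCA, and 396 and 349 in WT. Every genetically altered genotype lay above WT in this sum in both layouts. Igfbp5 made up 38.2% and 29.9% of the sum in AROM, 59.9% and 52.4% in CERM, 59.8% and 59.1% in BRCA, and 52.0% and 53.8% in WT. Igfbp4 was the largest part in AROM, with 39.4% and 48.2%, against 30.1% and 27.1% in WT. Igfbp6 took 17.9% and 18.9% in AROM against 10.8% and 12.5% in WT. The ratio of summed binding protein to summed ligand FPKM was 17.1 and 14.3 in AROM, 21.3 and 16.7 in CERM, 19.2 and 19.6 in BRCA, and 18.7 and 19.4 in WT. It was below WT in AROM in both layouts, above WT in the single-end and below it in the paired-end columns in CERM, and close to WT in BRCA in both.

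**Figure D2:**
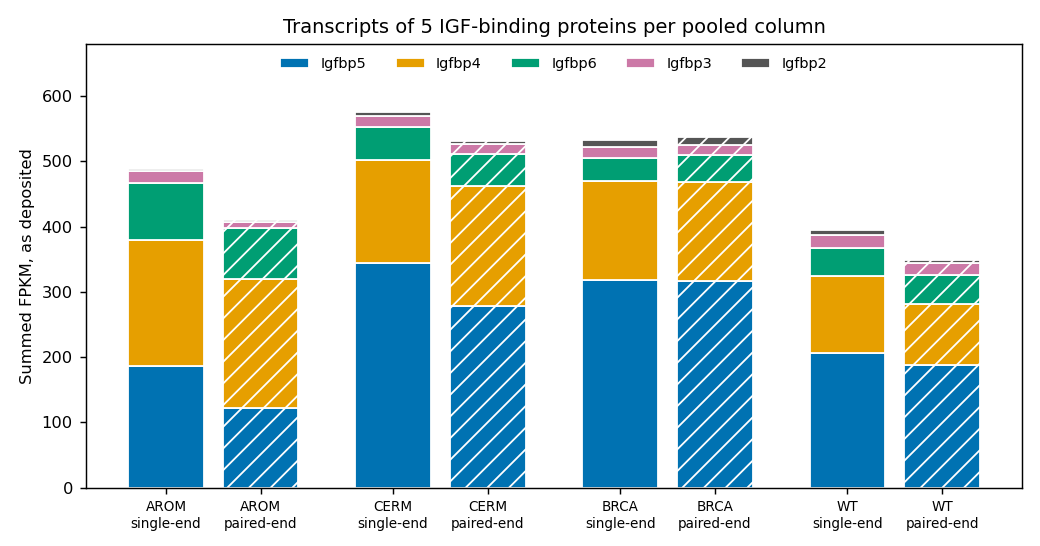
Summed FPKM of the 5 IGF-binding protein genes in each pooled column, stacked by gene, with plain bars for single-end and hatched bars for paired-end columns. AROM has the largest Igfbp4 and Igfbp6 segments and the smallest Igfbp5 segments, and WT has the lowest sums.

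The AROM against WT comparison asks what differs in glands labelled as carrying the aromatase transgene. Igfbp6 was 2.05 times WT in the single-end and 1.78 times in the paired-end columns, Igfbp4 1.61 and 2.09 times, and Igfbp2 0.466 and 0.460 times. Ghr was 1.15 and 1.56 times WT and Igf1 1.30 and 1.89 times. Called at 2-fold or more on log2(FPKM + 1), a scale that understates the ratio of low genes, were Igfbp6 in the single-end columns (log2 ratio 1.02) and Igfbp4 in the paired-end ones (1.06). That is 1 of 10 members in each layout, against 3.99% and 4.77% of all genes, and none of the 10 was called in both layouts (1.67% of all genes). Both layout values of AROM were above both of WT for 4 of 10 members (Igf1, Igfbp4, Igfbp6 and Ghr; 23.5% of all genes) and below them for 3 (Igfbp2, Igfbp3 and Igfbp5; 25.0% of all genes). Against those shares, neither count is read as a property of the list. Single members stood further out: 0.623% of all genes were at least as far above WT as Igfbp6 in both layouts, 0.993% as far as Igfbp4, and 1.94% as far below as Igfbp2. Those are the furthest of the list. For the other members that differed the same way in both layouts the share ran from 5.18% (Igf1) to 30.7% (Igf2r). Here and below, members given such a share were picked with their values known. Paired-end AROM values ran low in general, with a log2 shift against WT of -0.15 by median-ratio scaling. After scaling the log2 ratio of Igf1 there was 1.02, past 2-fold, and the small paired-end differences of Igf2 and Igf2r changed sign.

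Cell type markers differed in the same columns. Of 15 white adipocyte genes analysed, 1 was 2-fold higher in AROM in the single-end and 8 in the paired-end columns, and their summed level was 25982 and 32053 FPKM in AROM against 17418 and 13554 in WT. Of 12 luminal epithelial genes, 5 and 8 were 2-fold lower, with sums of 529 and 317 FPKM in AROM against 1017 and 821 in WT. Among them Cdh1, the adhesion gene E-cadherin, was at 22.6 and 13.2 FPKM in AROM against 55.4 and 45.0 in WT. The 14 fibroblast genes summed to 1796 and 1438 FPKM in AROM against 1295 and 857 in WT, and 0 and 3 of them were called higher. Milk genes summed to 2848 and 2143 FPKM in AROM against 17780 and 14022 in WT, with 7 and 8 of 12 called lower. All 9 skeletal muscle genes analysed were called higher in AROM in the single-end and none in the paired-end columns, with sums of 36757 and 23870 FPKM in AROM against 12858 and 21096 in WT. No gene of these lists in the table was at 0. In whole glands, a lower share of a cell type and less RNA per cell cannot be told apart, and the part of these markers in the member values was not tested.

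**Figure D3:**
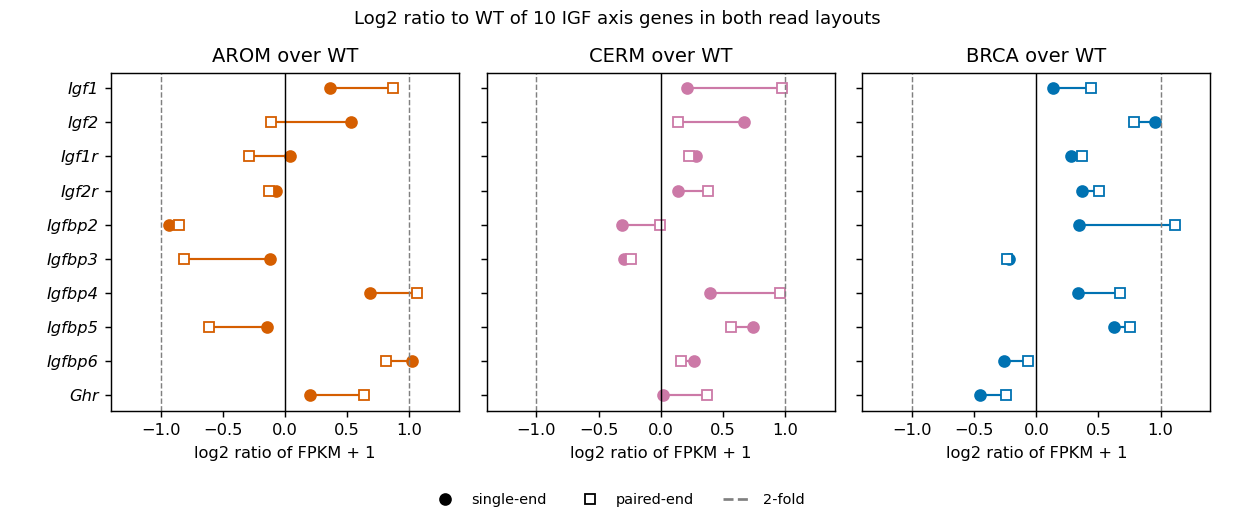
Log2 ratio of FPKM + 1 to WT of the 10 members in AROM, CERM and BRCA, with filled circles for single-end, open squares for paired-end columns, a line joining them and dashed lines at 2-fold. Points at or past a dashed line are Igfbp6 and Igfbp4 in AROM, 1 layout each, and Igfbp2 in BRCA in the paired-end columns.

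The promoters of Igf1, Igfbp4 and Igfbp6 are shown as the members with 1 RefSeq window each that lay above WT in both AROM layouts. The windows run from 250 bases before to 50 bases after the annotated start (GRCm38.p6), and 15 windows matched the 10 members. Both strands were searched for the full estrogen response element (GGTCA and TGACC with 3 bases between them), the single site AGGTCA, the Stat5 motif TTCNNNGAA and the TATA box TATAAA. Capitals mark the matches.
Igf1 (chr10:87860861-87861160, plus strand): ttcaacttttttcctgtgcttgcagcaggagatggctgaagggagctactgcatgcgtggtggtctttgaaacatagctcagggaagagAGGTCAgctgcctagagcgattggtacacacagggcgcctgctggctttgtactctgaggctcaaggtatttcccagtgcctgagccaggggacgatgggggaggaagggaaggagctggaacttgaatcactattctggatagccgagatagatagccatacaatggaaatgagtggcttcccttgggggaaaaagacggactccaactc
Igfbp4 (chr11:99040994-99041293, plus strand): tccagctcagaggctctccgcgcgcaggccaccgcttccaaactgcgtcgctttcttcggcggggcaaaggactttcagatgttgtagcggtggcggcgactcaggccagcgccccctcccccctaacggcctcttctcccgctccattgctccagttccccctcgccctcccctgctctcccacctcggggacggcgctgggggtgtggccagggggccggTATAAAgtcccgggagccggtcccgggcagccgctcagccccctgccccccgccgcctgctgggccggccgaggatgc
Igfbp6 (chr15:102143936-102144235, plus strand): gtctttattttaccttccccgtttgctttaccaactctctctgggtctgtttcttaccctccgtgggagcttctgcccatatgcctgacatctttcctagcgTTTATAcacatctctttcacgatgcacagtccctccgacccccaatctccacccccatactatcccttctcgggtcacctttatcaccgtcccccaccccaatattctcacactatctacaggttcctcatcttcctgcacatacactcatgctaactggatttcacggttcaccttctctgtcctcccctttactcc
Igf1 held AGGTCA beginning at position -161 from the start. Igfbp4 held TATAAA at -28 and Igfbp6 held it on the opposite strand at -148. Over the 15 windows there were 0 full elements, 4 windows with AGGTCA (1 each of Igf1, Igf2, Igf1r and Igf2r), 0 with the Stat5 motif and 3 with TATAAA. Of 32851 mouse windows of this length, with a chromosome left out, 0.0700% held the full element, 16.3% AGGTCA, 8.30% the Stat5 motif and 13.6% TATAAA. These matches describe letters in short windows and show no binding.

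CERM against WT addresses the Esr1 transgene. Igfbp5 was 1.68 and 1.49 times WT (single-end, then paired-end), Igf1 1.16 and 2.04 times, and Igfbp4 1.32 and 1.95 times. None of the 10 members was called in either layout, against 4.65% and 4.63% of all genes (1.53% in both layouts). Igf1 came closest, at a log2 ratio of 0.98 in the paired-end columns. Both CERM values were above both WT values for 8 of 10 members, all but Igfbp2 and Igfbp3 (27.7% of all genes), and below them for 1, Igfbp3 (24.8%). The median log2 ratio of the members was 0.24 and 0.30, beside -0.04 and 0.04 over all genes. Of all genes, 3.22% were at least as far above WT as Igfbp5 in both layouts, 6.37% as far as Igfbp4 and 13.9% as far as Igf1. Stromal markers differed mainly in the paired-end columns, where 8 of 14 fibroblast genes and 7 of 10 macrophage genes were 2-fold higher, against 0 and 0 in the single-end ones. Fibroblast genes summed to 1395 and 2141 FPKM in CERM against 1295 and 857 in WT, and macrophage genes to 766 and 1416 FPKM in CERM against 879 and 703 in WT. Skeletal muscle genes were called higher in CERM in 9 of 9 (single-end) and 1 of 9 (paired-end), with sums of 39104 and 29762 FPKM in CERM against 12858 and 21096 in WT. Luminal epithelial genes summed to 684 and 665 FPKM in CERM against 1017 and 821 in WT, with list medians of -0.56 and -0.42. Of these 12 genes, 0 and 0 were called lower and 0 and 1 higher. Milk genes summed to 14497 and 8911 FPKM in CERM against 17780 and 14022 in WT, with 1 and 2 of 12 called lower and 3 and 0 higher. Igf1 and Igfbp4 had their larger CERM ratios in the paired-end columns, and the part of the markers was not tested.

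**Figure D4:**
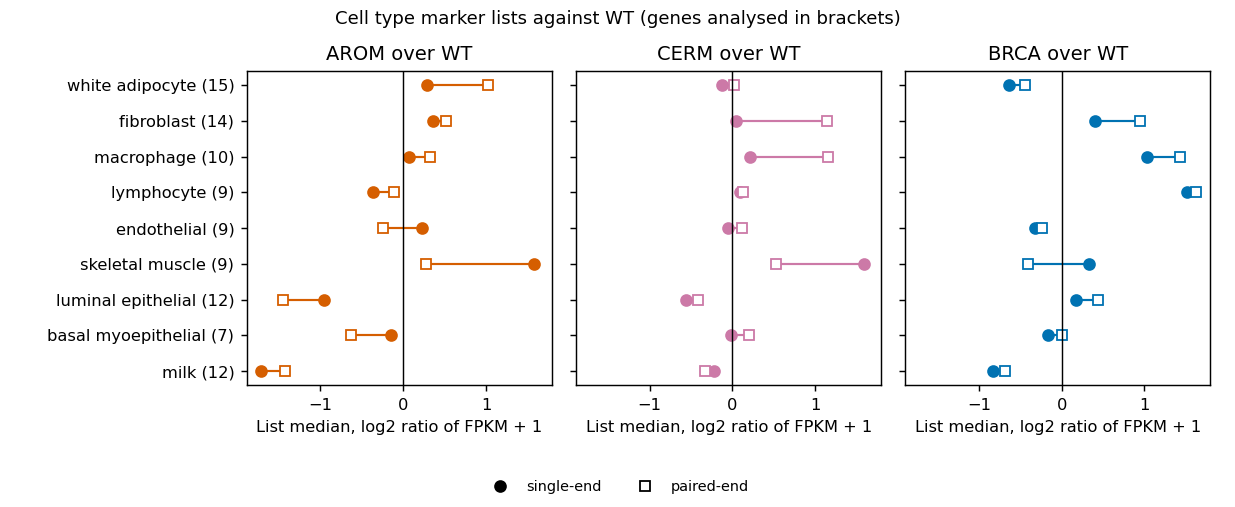
Median log2 ratio of FPKM + 1 to WT of 9 cell type marker lists in AROM, CERM and BRCA, with filled circles for single-end and open squares for paired-end columns and the number of genes analysed in brackets. Luminal and milk lists lie furthest below 0 in AROM, the fibroblast and macrophage lists of CERM are near 1 in the paired-end columns alone, the skeletal muscle list is above 1 in the single-end columns of AROM and CERM, and the lymphocyte list is highest in BRCA.

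In the BRCA against WT comparison the BRCA columns lay close together over the layouts, with paired-end over single-end ratios of the members between 0.922 and 1.17 in BRCA and between 0.584 and 1.28 in WT. Igf2 was 2.17 and 1.86 times WT, Igfbp5 1.55 and 1.69 times, and Igfbp2 1.30 and 2.41 times. Ghr was 0.728 and 0.841 times WT. Called at 2-fold were 0 of 10 members in the single-end columns and 1, Igfbp2, in the paired-end ones (log2 ratio 1.12), against 5.52% and 6.31% of all genes, and none in both layouts, against 4.04%. Both BRCA values were above both WT values for 7 of 10 members (44.9% of all genes) and below them for 3, Igfbp3, Igfbp6 and Ghr (28.5%). The median log2 ratio of the members was 0.31 and 0.47, beside 0.04 and 0.11 over all genes. In both layouts 5.19% of all genes were at least as far above WT as Igf2, and 7.89% as far as Igfbp5. Paired-end BRCA values were shifted against WT by 0.13 on the log2 scale by median-ratio scaling. Lymphocyte genes were higher in BRCA, 7 and 8 of 9, with sums of 90.0 and 85.2 FPKM in BRCA against 26.3 and 19.6 in WT, and macrophage genes, 5 and 7 of 10, with sums of 1079 and 1044 FPKM in BRCA against 879 and 703 in WT. White adipocyte genes summed to 11124 and 10412 FPKM in BRCA against 17418 and 13554 in WT, with 3 and 2 of 15 called lower, beside the lower Ghr values. Of 14 fibroblast genes, 1 and 6 were called higher in BRCA, with sums of 1902 and 1848 FPKM in BRCA against 1295 and 857 in WT. Luminal epithelial genes were called higher in 2 and 4 of 12, with sums of 1065 and 1057 FPKM in BRCA against 1017 and 821 in WT. Milk genes were called lower in 4 and 3 of 12 and higher in 1 and 1, with sums of 9238 and 8657 FPKM in BRCA against 17780 and 14022 in WT. The part of these markers was not tested.

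Between the altered genotypes, Igfbp2 was the one member called in both layouts. It was 0.357 and 0.191 times BRCA in AROM, with log2 ratios of -1.28 and -1.97. In AROM against BRCA, Igfbp6 was called in the single-end columns (2.47 times BRCA) and Igfbp5 in the paired-end ones (0.386 times). This gave 2 of 10 members in each layout, against 8.39% and 14.9% of all genes, and 1 in both layouts, against 6.18%. The median-ratio shift of the paired-end comparison was -0.28, the largest of the 12, and after scaling Igfbp6 and Ghr were past 2-fold there as well, both higher in AROM. Luminal epithelial genes were lower in AROM than in BRCA in 7 and 11 of 12, and white adipocyte genes higher in 6 and 13 of 15. Called lower in AROM than in BRCA were also 7 and 7 of 12 milk genes, 9 and 9 of 9 lymphocyte genes and 2 and 6 of 10 macrophage genes, and skeletal muscle genes were called higher in 7 and 0 of 9. The part of these markers was not tested.

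CERM against AROM asks how the receptor and the ligand-producing models differ. Igfbp5 was 1.85 and 2.28 times AROM, Igfbp2 1.68 and 2.17 times and Igfbp6 0.588 and 0.631 times. The 2-fold rule called 0 members in the single-end columns and 1, Igfbp5, in the paired-end ones, against 2.64% and 6.38% of all genes (1.56% in both layouts), and after median-ratio scaling the paired-end ratio of Igfbp5 was 0.98 and no longer past it. The shift of that comparison was 0.20. In both layouts 0.837% of all genes were at least as far below AROM as Igfbp6, and 1.79% as far above as Igfbp5. In CERM against BRCA, Igfbp2 was 0.601 and 0.413 times BRCA and the only member called, in the paired-end columns, against 6.16% of all genes in the single-end and 5.36% in the paired-end columns (3.20% in both). Ghr was 1.39 and 1.54 times BRCA and Igf1 1.06 and 1.48 times. Milk genes were called higher in CERM than in AROM in 9 and 7 of 12 and luminal epithelial genes in 0 and 5 of 12, and white adipocyte genes lower in 0 and 7 of 15. Lymphocyte genes were called lower in CERM than in BRCA in 6 and 6 of 9, and skeletal muscle genes higher in 8 and 3 of 9. Milk genes were called higher there in 3 and 2 of 12 and lower in 3 and 3. Luminal epithelial genes were called lower in 2 and 4 of 12, and white adipocyte genes higher in 3 and 4 of 15. The part of these markers was not tested. Comparisons with a genotype in common share its columns, so these values are not independent of those against WT.

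Other genes of the pathway were read from 3 lists. Of 14 genes of IGF binding and cleavage, 7 were analysed, and Igfals was the 1 called in both layouts. It was called in AROM and in BRCA against WT, beside 1.67% and 4.04% of all genes. Its product, the acid-labile subunit, holds IGF and IGFBP3 in a large complex in blood. Igfals was at 7.69 and 10.1 FPKM in AROM, 16.7 and 16.7 in CERM, 9.22 and 9.68 in BRCA, and 24.7 and 22.0 in WT, so WT was highest in both layouts, as for Igfbp3. Its log2 ratio was -1.57 and -1.05 in AROM over WT and -1.33 and -1.11 in BRCA over WT. Pappa, the gene of the protease that cleaves IGFBP4, was at 1.04 and 1.06 FPKM in BRCA and at or below 0.309 FPKM in the other columns, and it was not called on the FPKM + 1 scale. Igfbp7, a related protein with low affinity for IGFs, was not called in any comparison, with 182 to 268 FPKM. Igfbp1 is listed at 0 in all 8 columns.

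The next list held signal transduction genes. Of 37 genes from the insulin receptor and IRS adapters to Akt, mTOR and the MAP kinases, 29 were analysed. None was called in both layouts against WT in AROM, CERM or BRCA, beside 1.67%, 1.53% and 4.04% of all genes. At those shares this is not read as a property of the list. The list median lay between -0.15 and 0.16 in these comparisons. Irs2, an adapter of the insulin and IGF1 receptors, was at 22.7 and 17.3 FPKM in CERM against 11.8 and 10.2 in WT and was called in neither layout.

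The growth hormone and prolactin list had 11 of 12 genes analysed. In BRCA against WT 2 of 11 were called higher in both layouts, beside 4.04% of all genes called there in either direction. Socs3, a feedback inhibitor of cytokine receptor signals, was at 13.6 and 13.4 FPKM in BRCA against 3.93 and 3.77 in WT, and Ptpn6, a phosphatase gene of blood cells, at 20.3 and 19.4 FPKM against 7.40 and 5.69 in WT. None of the 11 was called in both layouts in AROM or CERM against WT, beside 1.67% and 1.53% of all genes. Socs2, the main feedback inhibitor of growth hormone receptor signals, was at 8.28 and 5.81 FPKM in AROM, 7.21 and 7.45 in CERM, 10.1 and 9.79 in BRCA, and 12.7 and 12.4 in WT. Cish, a target of Stat5, was at 8.14 and 8.01 FPKM in AROM, 16.5 and 11.6 in CERM, 15.3 and 15.1 in BRCA, and 17.3 and 16.2 in WT. Neither was called in both layouts. Socs2 was highest in WT in each layout.

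Genes with the most similar profiles were found by the largest absolute difference between centred log2(FPKM + 1) profiles over the 8 columns. For Igf1 the nearest were Nid1, a basement membrane gene, at 0.0869, Prnp, the prion protein gene, at 0.0895 and Atp2a3, a calcium pump gene, at 0.126, and 0.950% of 11154 candidate genes were within 0.3. For Igfbp2 they were Rab20 at 0.196, Nhsl1 at 0.213 and Kit, a receptor gene of luminal progenitors, at 0.214, with 0.179% within 0.3. For Igfbp5 they were St6galnac2 at 0.157, Ptger4, a prostaglandin receptor gene, at 0.172 and Zfp704 at 0.174, with 0.242% within 0.3. The columns of the 2 layouts may share glands, and such likeness over 8 pooled values is a description of them.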

How the data were processed

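Per the labels' protocols, polyadenylated RNA of mammary glands was made into TruSeq libraries and sequenced on a HiSeq instrument as single- and paired-end reads. The submitters' processing notes name the mouse build mm9 and the tools FastQC, Trim Galore, TopHat and Cufflinks, without versions. The authors' deposited table gives FPKM in 8 pooled columns, and neither labels nor header say how libraries were combined. No counts are in the table, so the depth behind each value is unknown, and no interval was computed. Of the 30843 loci, 8119 had no name, 585 several symbols and 1719 a shared symbol. Analysed were loci with 1 symbol of their own, plus both Igf2 loci, that reached 1 FPKM in 2 or more columns (12190). For each pair of genotypes and each layout the log2 ratio of FPKM + 1 was computed on values as deposited (Python 3.11.15, pandas 2.3.3), and called at 2-fold or more. The limma fits considered need a column per library and could not be run. Alternatives were a pseudocount of 0.1, median-ratio scaling and no filter. The fold rule was also run on simulated data, with an assumed noise and changes larger than 2-fold planted in genes of higher level. That run checks the computation and does not measure the error of the calls made here.

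The members and lists were chosen with earlier results of these data known. Named genes are the 10 members, the check genes, up to 4 genes of each pathway list (2 of each marker list) called in both layouts, and the 3 nearest profiles of Igf1 and of the 2 members of widest range. One gene under this rule is not reported here. Outside this rule, Pappa, Igfbp7, Igfbp1, Irs2, Socs2, Cish, Igf2as, Ncl and the genes of the closing observations were named after their values were seen. The marker lists with the most calls are described, with the luminal epithelial and milk lists in every comparison against WT. Medians against WT of all 9 are plotted. Promoter windows are from RefSeq (GRCm38.p6), and no coordinates of mm9 loci are given.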

Additional observations from a re-analysis of the deposited data

How the results depend on the processing

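Without a filter on low values, every count of called members and of called genes was within 1.5 times the reported one. With a pseudocount of 0.1 the counts of called members were 2 in AROM against WT in each layout (Igfbp2 joined, at a log2 ratio of -1.08 in both), 1 in BRCA against WT single-end (Igf2, 1.10), 1 in CERM against WT paired-end (Igf1, 1.03) and 2 in CERM against AROM paired-end (Igfbp2, 1.08). In AROM against BRCA paired-end the count was 3 (Igf2 joined, at -1.02). Of the 12190 genes, those called higher were then 424 (single-end) and 357 (paired-end) in AROM against WT. They were 595 and 708 in CERM against WT and 743 and 1003 in BRCA against WT. In CERM they were 365 and 941 against AROM and 516 and 444 against BRCA, and in AROM 538 and 670 against BRCA. Genes called lower were 394 and 703 in AROM, 217 and 189 in CERM and 350 and 266 in BRCA, each against WT. In CERM 163 and 345 were lower against AROM and 709 and 698 against BRCA, and in AROM 1108 and 2102 against BRCA. Beside these counts over all genes, the member counts are not read as a property of the list. With a pseudocount this small, low genes pass 2-fold more easily by construction.

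Median-ratio scaling changed counts in the paired-end columns. Of the 12190 genes, AROM against WT then had 383 called higher and 276 lower, with 2 members called. That is 58.1% of its calls higher against 42.0% as deposited. CERM against AROM had 0 members called, with 361 genes higher and 457 lower, or 44.1% of calls higher against 64.8%. AROM against BRCA had 4 members, 990 genes higher and 807 lower, with 55.1% higher against 29.1%. Of 126 member ratios 5 changed sign, all at most 0.13 in size and none of them called. They were Igf1 in CERM against AROM, Igf2 and Igf2r in AROM against WT (paired-end each), and Igfbp3 in CERM against BRCA in both layouts. The cause of these shifts was not tested. No paired analysis was possible because the columns carry no replicate, and for the same reason no replicate could be left out. Depth is unknown, so counting error could not be set beside any value.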

Other observations

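Some pathway genes had ratios to WT that differed between layouts. Foxo3, a transcription factor gene restrained by Akt, is listed at 0 in the single-end columns of BRCA and WT and at 13.3 FPKM in BRCA and 12.1 in WT in the paired-end ones, while AROM had 8.46 and 4.61 FPKM and CERM 12.8 and 14.1 (single-end, then paired-end). Prlr, the prolactin receptor gene, was at 9.87 and 18.7 FPKM in CERM against 10.2 and 7.96 in WT. Adam12, a metalloprotease gene whose product can cleave IGF-binding proteins, was at 2.83 and 5.78 FPKM in CERM against 2.17 and 1.69 in WT. Htra1, a secreted protease gene, was at 89.0 and 97.2 FPKM in AROM and 56.8 and 92.0 in CERM, against 59.2 and 43.0 in WT. Akt2, an Akt isoform gene, was at 104 and 167 FPKM in AROM against 79.1 and 77.2 in WT.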
